A study of Mus musculus with 8 samples.

Results

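The genes described here encode carriers that move small peptides and amino acids across the cell membrane: Slc15a2, Slc43a2, Slc43a1, Slc7a5, Slc3a2, Slc7a1, Slc1a4, Slc1a5, Slc38a1 and Slc38a2. They are 10 of the 21154 genes with a named probe on the array, and were found by the gene symbol or RefSeq accession of each probe that is not a control. Slc15a2 was chosen by its lower level in tumours given RANK-Fc in an earlier look at these arrays, so its RANK-Fc differences are a description without a test. The other 9 were added as related transporters with earlier results of these data known, and their p-values are not independent evidence.

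The study measured gene expression in 16 mouse mammary tumours on 8 Agilent arrays, each array carrying 2 tumours in separate dye channels. All tumours were MMTV-PyMT, in which the mouse mammary tumour virus promoter drives the polyoma middle T oncogene in the mammary epithelium. They grew at the orthotopic site of wild-type FVB mice, and the host mice therefore supplied normal stroma, vessels and immune cells. RANK-Fc is a soluble decoy that captures RANK ligand; treated mice had it by intraperitoneal injection at 10 mg/kg, 3 doses each week.

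Passage 1 gave a control group of 2 tumours and a RANK-Fc group of 3. Passage 2 gave a control group of 2, and 3 tumours each with RANK-Fc in that passage alone (called current here, adjuvant in the labels), with RANK-Fc earlier alone (called prior here, neoadjuvant in the labels), and with both. The label codes are read here as placing neoadjuvant treatment in passage 1. The labels name no passage 1 parent for any passage 2 tumour, and they name a different animal for each tumour. On that reading, tumours with and without prior RANK-Fc came from different parents. A difference with prior RANK-Fc therefore cannot be told apart from a difference between parent tumours. Tumours that may share a parent are treated as separate in every comparison below. RNA came from tumour fragments, so fewer cells of a type and less RNA per cell cannot be told apart in any result below.

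Dietary and extracellular protein reaches cells as free amino acids and as peptides of a few residues, and each needs its own membrane carrier. Proton-coupled carriers of the Slc15 family take up di- and tripeptides. Exchangers and uniporters of the Slc7, Slc43 and Slc1 families and sodium-coupled carriers of the Slc38 family supply leucine, glutamine, arginine and other amino acids, which feed protein synthesis and signal to the growth kinase complex mTORC1. The lactating mammary gland is rich in such carriers, since milk protein is made from amino acids drawn from blood, and RANK is a receptor that controls growth and secretory differentiation of the mammary epithelium.

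All 10 genes were on the array, with 14 probes between them. A probe was used if 1 or more groups had it well above background throughout; 13 of the 14 probes passed, and each gene was read from its brightest one. This left 9 of the 10 genes among the 14131 tested; a gene could pass through 1 group alone, but each of these 9 was well above background in 16 of 16 tumours. No spot of these probes was missing. The tenth, Slc43a1, was well above background in 4 of 16 tumours. The channels had 47.5% to 56.5% of their spots well above background and none saturated. The markers of luminal epithelium, 5 of 5 of them tested, averaged 12.34 to 12.90 on the log2 scale in the 16 tumours, so markers of the labelled tissue were present in every tumour.

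Slc15a2 lies on chromosome 16, and the 250 bases before its annotated start, taken from RefSeq (GRCm38.p6, chr16:36784963-36785212, minus strand), are shown because its level is the one the others were gathered around.
Slc15a2: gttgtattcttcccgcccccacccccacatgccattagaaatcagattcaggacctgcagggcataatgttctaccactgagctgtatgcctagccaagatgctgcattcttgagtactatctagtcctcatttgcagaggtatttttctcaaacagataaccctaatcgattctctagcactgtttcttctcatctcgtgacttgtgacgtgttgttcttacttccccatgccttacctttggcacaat
RefSeq promoter windows of 300 bases, 250 before and 50 after the start, were at hand for 7 of the 10 genes, in 9 windows. They were searched on both strands for TGATGNAA (the core of the C/EBP-ATF element through which amino acid shortage acts on many transporter genes), for TTCNNNGAA (the STAT5 site of milk protein genes) and for CACGTG (the E-box bound by Myc). None of these letters occurred in the window of Slc15a2, hence no capitals above. Each motif occurred in 1 of the 9 windows. Those matches are shown with 8 flanking bases on each side and the match in capitals.
Slc1a4: ctcctgcgTTGCATCAtctccagc
Slc7a1: ggccactcTTCAAAGAAgccctttg
Slc43a1: tctccctcCACGTGgcagccgt
The Slc1a4 match was the C/EBP-ATF core on the minus strand, -4 bases from the start, in chr11:20332664-20332963. The Slc7a1 match was the STAT5 site at -146 in chr5:148392766-148393065, 1 of 2 windows of that gene. The Slc43a1 match was the E-box at -64 in chr2:84840073-84840372. Over all 32851 windows of this length, 3.97% held the C/EBP-ATF core, 8.3% the STAT5 site and 7.15% the E-box. A match describes the letters only.

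Slc15a2 encodes PEPT2, the high-affinity carrier of di- and tripeptides, which also moves peptide-like drugs. On the log2 intensity scale, the passage 1 controls read 10.41 and 10.04, and the passage 1 RANK-Fc tumours 9.89, 9.90 and 10.00. The passage 2 controls read 10.51 and 10.62, current RANK-Fc 10.20, 9.52 and 10.08, prior RANK-Fc 9.92, 10.13 and 10.16, and prior and current RANK-Fc 9.58, 9.47 and 9.45. The controls of passage 2 were the highest group and the tumours with both treatments the lowest, with no overlap between them. In each of the 3 backgrounds (passage 1, passage 2, and passage 2 after prior treatment) every tumour with current RANK-Fc lay below every tumour without it.

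The group means of Slc15a2 ran from 10.57 ± 0.08 (SD, n = 2) in passage 2 controls through 10.22 ± 0.26 (n = 2) in passage 1 controls and 10.07 ± 0.13 (n = 3) with prior RANK-Fc. They were 9.93 ± 0.36 (n = 3) with current RANK-Fc, 9.93 ± 0.06 (n = 3) in passage 1 RANK-Fc tumours and 9.50 ± 0.07 (n = 3) with both. The passage 2 controls lay apart from every other group. From the passage 1 controls down to the passage 1 RANK-Fc tumours, neighbours in this order overlapped. The group with both treatments overlapped the current group, through its replicate 2 at 9.52, and no other.

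Current RANK-Fc against its absence, averaged over the 3 backgrounds, gave a fitted log2 difference of -0.53 ± 0.10 (SE) for Slc15a2, or 0.691 times the level. The parts were -0.32 ± 0.17 in passage 1, -0.70 ± 0.17 in passage 2 and -0.59 ± 0.15 after prior RANK-Fc. Prior RANK-Fc against passage 2 controls gave -0.51 ± 0.17, and both treatments against the same controls -1.10 ± 0.18, or 0.467 times the level. These last comparisons share their control tumours. With both treatments against control, T and NK cell markers (5 of 6 tested) had a median difference of -0.61. Macrophage markers (7 of 7) had -0.48. None of either list was positive and 0 were called. Adipocyte markers (7 of 8 tested) had 0.41 there, with 7 positive, and luminal epithelium markers (5 of 5 tested) 0.24, with 4 positive. With current RANK-Fc against control in passage 2, macrophage markers had a median of 0.44, with 7 positive. T and NK markers had 0.07, with 5 positive, and luminal epithelium markers 0.03, with 4 positive. The part of these cells in the Slc15a2 difference was not tested. The current effect in passage 2 minus that in passage 1 was -0.38 ± 0.24, and the effect after prior RANK-Fc minus that without it 0.11 ± 0.22. In neither of these 2 differences of effects did any of the 14131 genes pass in limma; 255 and 977 genes had an unadjusted p under 0.05.

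**Figure D1:**
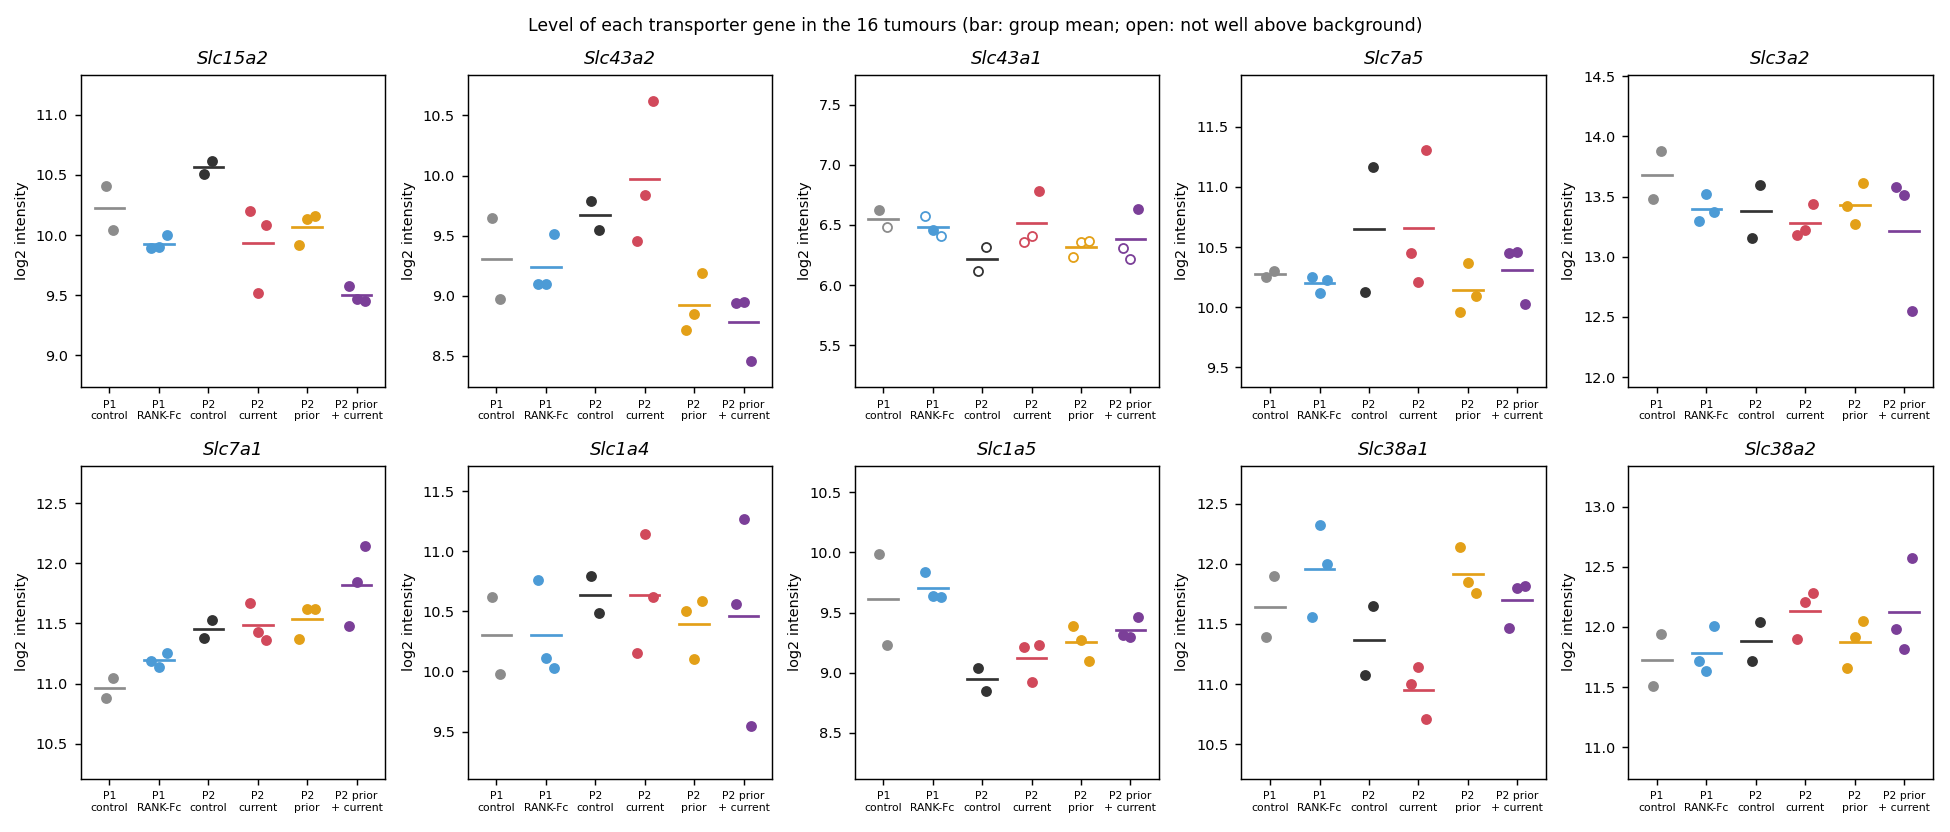
Log2 intensity of each of the 10 transporter genes (1 panel per gene, every vertical axis spanning the same range) in the 16 tumours by group; points are tumours, bars group means and open points tumours not well above background. P1 and P2 are passages 1 and 2. Slc15a2 lies between 9.45 and 9.58 with prior and current RANK-Fc and between 10.51 and 10.62 in passage 2 controls, and Slc38a1 lies between 10.71 and 11.14 with current RANK-Fc.

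Counts of calls place the members against all genes. In limma fits with Benjamini-Hochberg adjustment, an adjusted p under 0.05 was a call. For current RANK-Fc averaged over 3 backgrounds, for RANK-Fc against control in passage 1, for current RANK-Fc against control in passage 2 and for both treatments against prior alone, 0 of 14131 genes were called (0%), so 0 of the 9 members were. At an unadjusted p under 0.05, these limma comparisons held 965, 233, 572 and 1426 of all genes. Prior RANK-Fc against control called 0.00708% of genes and no member, with 1087 genes at an unadjusted p under 0.05. Both treatments against control called 12 genes (0.0849%), 1 of them a member, Slc15a2, by the contrast that had chosen it, and nothing is read from that count. Groups that lay apart in 1 direction in all 3 backgrounds of current RANK-Fc were found for 0.163% of all genes and for Slc15a2 alone among the members, again by its choice.

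The genes whose levels over the 16 tumours ran most like Slc15a2 were found by Pearson's r, given here as a description over tumours that share arrays. Cadm1, a cell adhesion molecule, stood first with r = 0.84 (0.84 over the 11 passage 2 tumours). Plcb3, a phospholipase C, had 0.79 (0.87), Prss12 0.79 (0.84), Kbtbd2 0.78 (0.80) and Tgfbr3, a TGF-beta co-receptor, 0.76 (0.78). Over passage 2 alone the first was Cebpb, a C/EBP transcription factor, at 0.90, with 0.59 over all 16. Among the other 8 members tested, r with Slc15a2 over 16 tumours ran from -0.41 for Slc7a1 to 0.43 for Slc43a2.

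Slc43a2 encodes LAT4, a uniporter that lets leucine, isoleucine, methionine and phenylalanine out of or into the cell along their gradient. It was lower in passage 2 tumours with prior RANK-Fc than in those without. The passage 2 controls read 9.79 and 9.55 and the current RANK-Fc tumours 9.46, 9.84 and 10.62. Those with prior RANK-Fc read 8.72, 8.85 and 9.19, and those with both 8.94, 8.95 and 8.46. All 6 tumours with prior treatment thus lay below all 5 without it, in each background and across both. The passage 1 tumours, none with prior RANK-Fc, fell in both ranges, with controls at 9.65 and 8.97 and RANK-Fc tumours at 9.10, 9.10 and 9.51. Those at 8.97, 9.10 and 9.10 lay within the range of the passage 2 tumours with prior RANK-Fc.

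Averaged over passage 2 with and without current treatment, Slc43a2 differed with prior RANK-Fc by -1.05 ± 0.20, 0.484 times the level (limma, adjusted p = 0.0464). It was the 1 member of 9 called there, against 52 genes or 0.368% of all; the 52 became 18 to 273 when 1 tumour was left out, with 273 without current replicate 1 and 18 without passage 2 control replicate 1 or prior replicate 2. The parts of this average were -0.78 ± 0.28 among tumours without current RANK-Fc (adjusted p = 0.453) and -1.31 ± 0.25 among those with it (adjusted p = 0.0582). Both treatments against control gave -0.99 ± 0.29 (limma, adjusted p = 0.277). Its groups both enter this average, so it is no separate result. Without current replicate 3, the tumour at 10.62, the average was -0.85 (adjusted p = 0.0520), and 13 of the 16 leave-one-out fits lost the call. It held without current replicate 1, without prior replicate 3 and without replicate 1 of the group with both treatments.

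Current replicate 3 also stood out in markers of other cell types. Its neutrophil markers (3 of 4 tested) averaged 13.58 against 11.42 to 12.87 in the other tumours, its fibroblast markers (8 of 8 tested) 12.77 against 10.18 to 11.97, and its macrophage markers (7 of 7 tested) 11.56 against 10.22 to 11.46. Macrophage markers averaged 10.32 to 11.56 in the 5 passage 2 tumours without prior RANK-Fc and 10.22 to 10.92 in the 6 with it, and T and NK cell markers (5 of 6 tested) 8.48 to 9.69 and 8.16 to 8.79. For prior RANK-Fc averaged, the median difference was -0.58 over the macrophage markers and -0.61 over the T and NK markers, with 0 positive in either list and 0 called. The part of these cells in the Slc43a2 difference was not tested.

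Slc38a1 encodes SNAT1, a sodium-coupled importer of glutamine and other small neutral amino acids. Its levels were lowest where passage 2 tumours had no prior RANK-Fc. The passage 1 controls read 11.39 and 11.90 and the passage 1 RANK-Fc tumours 11.56, 12.32 and 12.00. In passage 2 the controls read 11.08 and 11.65, current RANK-Fc 11, 11.14 and 10.71, prior RANK-Fc 12.14, 11.85 and 11.76, and both 11.47, 11.80 and 11.82. Tumours with prior RANK-Fc lay above their counterparts without it in both backgrounds, though 1 control, at 11.65, lay above 1 tumour with both treatments, at 11.47.

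Averaged over both backgrounds, prior RANK-Fc gave 0.73 ± 0.15 for Slc38a1 (limma, adjusted p = 0.0629), which did not pass. The other probes of the gene, dimmer at mean levels of 8.22 and 7.06, gave 0.66 ± 0.13 and 0.25 ± 0.11. Current RANK-Fc gave 0.25 ± 0.21 in passage 1 and -0.45 ± 0.21 in passage 2; the difference of these effects, -0.70 ± 0.29, did not pass (adjusted p = 1.00).

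Slc1a5 encodes ASCT2, an exchanger that carries glutamine and other neutral amino acids. With prior RANK-Fc it read 9.39, 9.27 and 9.10, and with both treatments 9.31, 9.30 and 9.46. The passage 2 controls read 9.04 and 8.85 and the current RANK-Fc tumours 9.21, 8.92 and 9.23, so the prior groups lay higher in both backgrounds. The average was 0.25 ± 0.13 (adjusted p = 0.373), which did not pass. The dimmer probe of Slc1a5 did not separate these groups, with 7.73, 8.04 and 7.60 for prior RANK-Fc against 7.66 and 7.79 for controls, and averaged 0.11 ± 0.11. Slc43a2, Slc38a1 and Slc1a5 were the 3 of 9 members whose groups lay apart in 1 direction in both backgrounds of prior RANK-Fc, as did 2.34% of all genes tested.

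**Figure D2:**
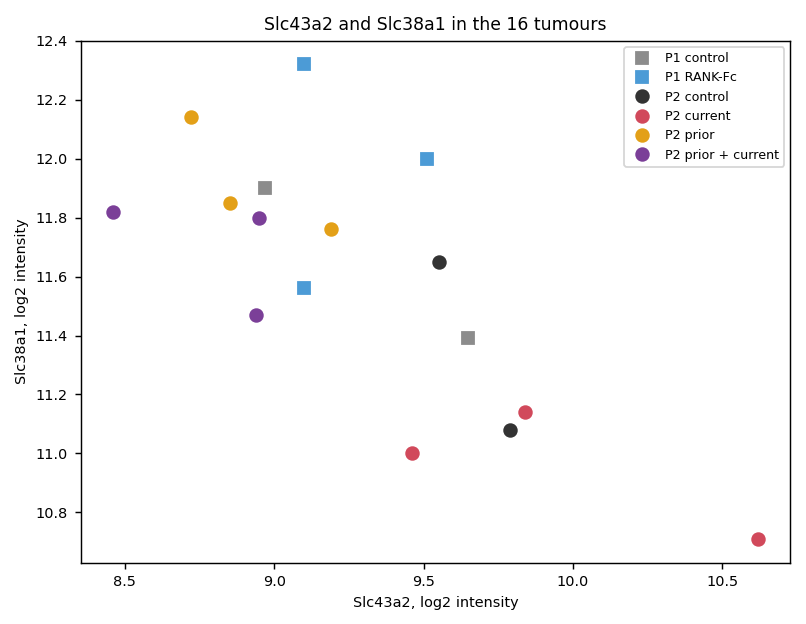
Log2 intensity of Slc38a1 (vertical axis) against Slc43a2 (horizontal axis); each point is 1 of the 16 tumours, squares passage 1 and circles passage 2, coloured by group. Tumours with prior RANK-Fc sit at the upper left, with Slc43a2 at 9.19 or lower, and passage 2 tumours with current RANK-Fc alone at the lower right, down to 10.71 for Slc38a1. Passage 1 control replicate 2 and passage 1 RANK-Fc replicates 1 and 2, without prior treatment, also lie at the upper left, with Slc43a2 at 8.97, 9.10 and 9.10.

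Slc43a2 and Slc38a1 ran opposite to each other across tumours. Pearson's r was -0.75 and Spearman's rho -0.66 over 16 tumours, and -0.87 and -0.85 over the 11 of passage 2. Without the 2 tumours farthest from the median of Slc43a2, r was -0.55. Slc1a5 and Slc38a1 had 0.57 without the 2 farthest from the median of Slc1a5. The tumours share arrays and groups, so no p is given. Over all 16 tumours, the r of Slc43a2 and Slc38a1 was the strongest among the 36 pairs of members. The next over 16 tumours was 0.63, between Slc7a1, the carrier of arginine and lysine known as CAT1, and Slc38a2; it was 0.19 without the 2 farthest tumours. Slc7a5 and Slc3a2, whose proteins form 1 exchanger, had r = 0.28.

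Between passages, 3 of the 9 members tested were called, against 12% of all genes, so the members' count rests on few genes and is read gene by gene. Passage 2 tumours grew in other animals than passage 1 tumours, and the labels do not name their parents. A difference between the passages therefore cannot be told apart from one between parent tumours or sets of host mice. The comparison averaged passage 2 minus passage 1 over controls and over tumours with current RANK-Fc. It shares all its passage 2 tumours with the comparison of prior RANK-Fc, and an opposite sign of a gene in the 2 comparisons is therefore no separate result. In the passage 2 controls against passage 1 controls alone, 471 genes (3.33%) and 0 members were called (limma, with 2187 genes at an unadjusted p under 0.05). These counts hung on the controls: the 471 became 63 or 94 without passage 1 control replicate 1 or 2, and 192 or 11 without passage 2 control replicate 1 or 2. The 1695 genes behind the 12% became 917, 1136, 1107 and 786 without the same 4 tumours in turn.

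Slc1a5 fell by 0.60 ± 0.14 on the log2 scale between the passages (limma, adjusted p = 0.0138). Its passage 1 tumours read 9.99 and 9.23 (controls) and 9.84, 9.64 and 9.63 (RANK-Fc), and were above the passage 2 tumours of the same treatment without overlap; the lower control read the same, 9.23, as the highest current RANK-Fc tumour. The dimmer probe of the gene gave -0.29 ± 0.12. Without passage 1 control replicate 1, at 9.99, the difference was -0.41 (adjusted p = 0.0511); leaving out passage 2 control replicate 2 gave -0.58 (adjusted p = 0.0617). Passage 1 control replicate 1 also had the highest mean of adipocyte markers (7 of 8 tested), 10.81 against 7.46 to 10.00 in the others; the part of such cells was not tested.

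Slc38a1 fell by 0.66 ± 0.16 between the passages (adjusted p = 0.0169). The controls overlapped, and the RANK-Fc tumours of passage 1, at 11.56 to 12.32, lay above the current RANK-Fc tumours of passage 2, at 10.71 to 11.14. Its other probes gave -0.71 ± 0.14 and -0.21 ± 0.11. The call was lost without passage 2 control replicate 1 (at -0.59 with adjusted p = 0.0867), as it was when passage 1 control replicate 2 was left out (at -0.56 with adjusted p = 0.0890).

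Slc7a1 rose by 0.36 ± 0.11 (adjusted p = 0.0434). It read 10.88 and 11.05 in passage 1 controls, 11.19, 11.14 and 11.25 in passage 1 RANK-Fc tumours, 11.38 and 11.53 in passage 2 controls and 11.67, 11.43 and 11.36 with current RANK-Fc. All 5 tumours of passage 1 lay below all 11 of passage 2, whose highest, at 12.14, had both treatments. Of the 16 leave-one-out fits 11 lost the call; it held without current replicate 3, prior replicate 3 or any 1 of the 3 tumours with both treatments. It was also lost with each channel centred on its median in place of loess and Aquantile (0.20, adjusted p = 0.517), with processed signals (0.0736), with no filter (0.0505) and with no dye term (0.0862). Slc1a5 and Slc7a1 were the 2 members whose groups lay apart in 1 direction in both parts of the passage comparison, as did 18% of all genes.

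Fibroblast markers averaged 11.28 to 11.97 in the 5 passage 1 tumours and 10.18 to 12.77 in the 11 of passage 2, adipocyte markers 8.38 to 10.81 and 7.46 to 9.69. Their median passage differences were -0.83, with 1 of 8 positive, and -1.10, with 1 of 7 positive. Their part in the passage differences was not tested.

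**Figure D3:**
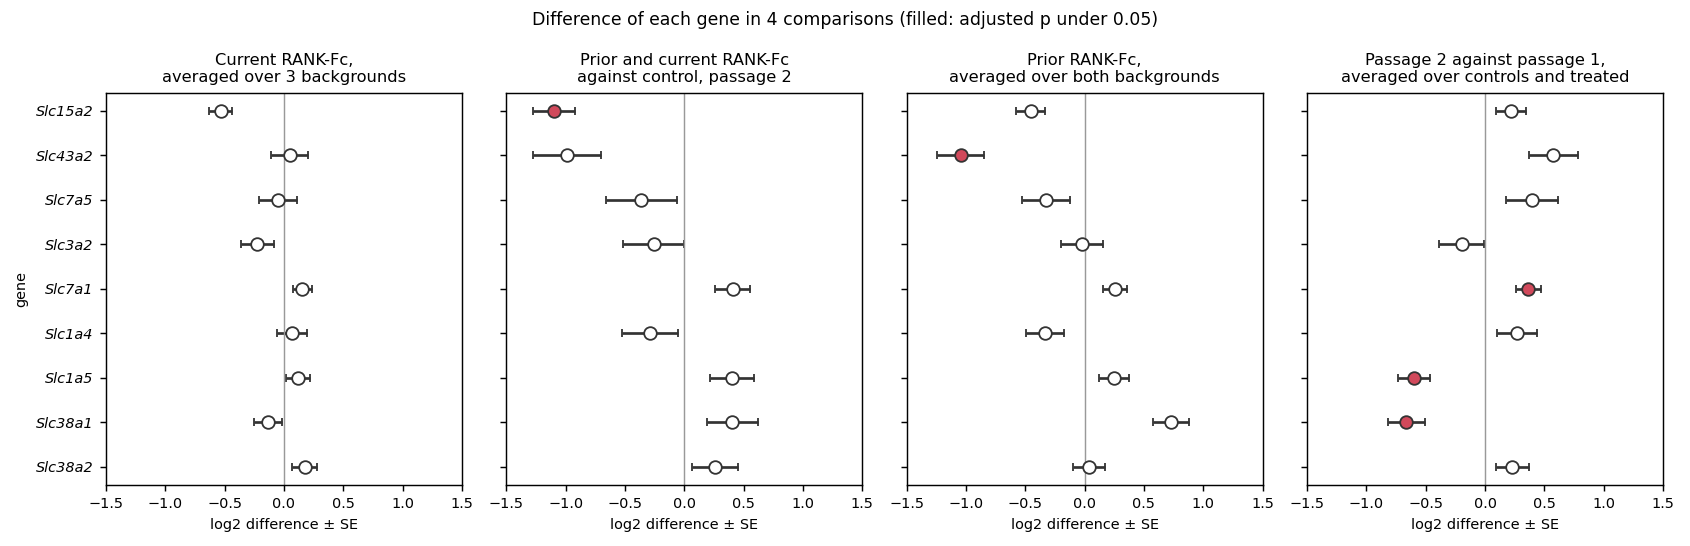
Log2 difference with its SE (horizontal axis) of the 9 genes tested (vertical axis) in 4 comparisons; filled points passed an adjusted p under 0.05. Slc15a2, at -1.10, passed with both treatments, the contrast it was chosen by, Slc43a2 passed with prior RANK-Fc, at -1.05, and Slc7a1, Slc1a5 and Slc38a1 passed between the passages.

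**Figure D4:**
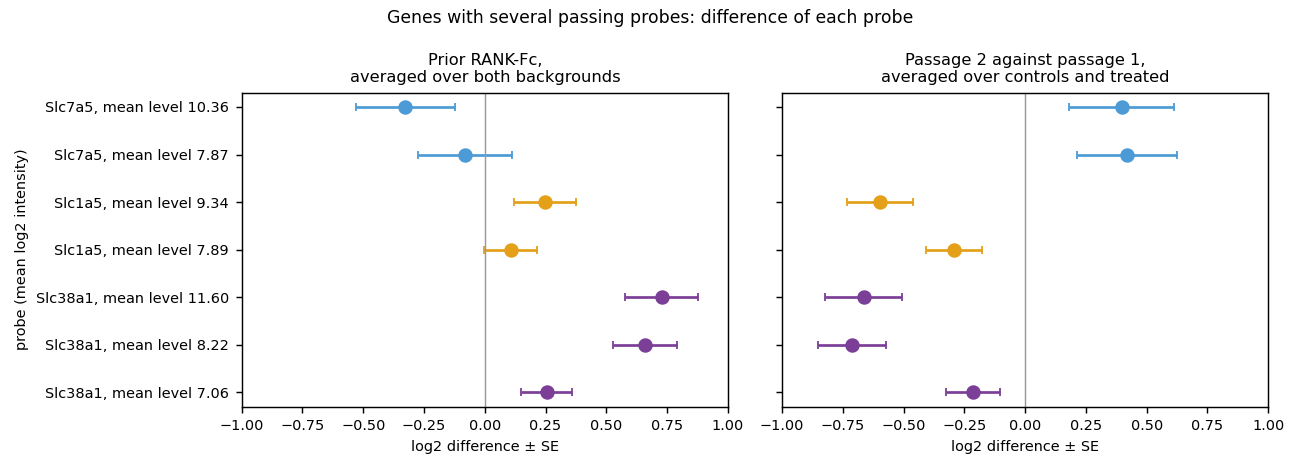
Log2 difference with its SE (horizontal axis) for each passing probe of the 3 genes with several (vertical axis, by gene and mean log2 intensity), for prior RANK-Fc and for passage. The probes of 1 gene share a sign, and the dimmest Slc38a1 probe reads 0.25 and -0.21 where the brightest reads 0.73 and -0.66.

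The remaining members passed in none of the 9 comparisons. Slc7a5 encodes LAT1, the exchanger that brings leucine and other large neutral amino acids into dividing cells. It read 11.17 in passage 2 control replicate 2 and 11.31 in current replicate 3, and 9.96 to 10.46 in the other 14 tumours. Each of those high tumours had a group mate near 10, so the SD was 0.74 (n = 2) in passage 2 controls and 0.58 (n = 3) with current RANK-Fc, and the difference for prior RANK-Fc was -0.33 ± 0.21 (adjusted p = 0.469). Its dimmer probe did not repeat this, at 7.92 and 8.33 in those tumours and up to 8.53 in another.

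Slc3a2 encodes the CD98 heavy chain, the partner that takes LAT1 to the membrane. It read 13.16 to 13.88 in 15 tumours and 12.55 in replicate 3 with prior and current RANK-Fc. Its difference for current RANK-Fc averaged over 3 backgrounds was -0.23 ± 0.14 (adjusted p = 0.823). The same tumour had the lowest Slc15a2, Slc43a2 and Slc1a4, at 9.45, 8.46 and 9.55, and the highest Slc7a1 and Slc38a2, at 12.14 and 12.57. Thus 6 of the 9 members had an extreme there, more than in any other of the 16 tumours. Extremes were not counted over all genes, so this is not read as a trait of the transporters. Without that tumour, Slc15a2 had -0.997 for both treatments against control and was not called, a description with no test. Prior RANK-Fc averaged then gave -0.97 for Slc43a2 (limma, adjusted p = 0.0921).

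Slc1a4 encodes ASCT1, an exchanger of serine, alanine and other small neutral amino acids. It ran from 9.55 to 11.27 over the 16 tumours, both ends in the group with prior and current RANK-Fc. The red channel read 0.71 higher than the green for this probe, against -0.25 to 0.17 for the other 8 members, and the fit carries a dye term for this; the residual SD of Slc1a4 was 0.26 where its SD over the 16 tumours was 0.45. Its largest difference in the averaged comparisons was -0.33 ± 0.16 for prior RANK-Fc (adjusted p = 0.342).

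Slc38a2 encodes SNAT2, the sodium-coupled carrier that cells raise on amino acid shortage. It ran from 11.51 to 12.57, and its difference for current RANK-Fc was 0.18 ± 0.11 (adjusted p = 0.808). Slc43a1 encodes LAT3, a relative of LAT4. Its probe read 6.12 to 6.78 and has no test here; tumours well above background were 4 of 16. The residual SD of the 9 tested members ran from 0.16 for Slc7a1 to 0.33 for Slc7a5, with a median of 0.17 over all genes, so for most members the error was wider than for a typical gene.

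The wider transporter family was read from lists drawn up with earlier results known. Of the 4 other peptide transporters of the Slc15 family, 2 were tested, Slc15a3 and Slc15a4, both carriers of lysosomal membranes. Neither was called in any comparison. Current RANK-Fc gave -0.28 ± 0.14 for Slc15a3 (adjusted p = 0.747) and -0.02 ± 0.07 for Slc15a4 (adjusted p = 0.985), next to -0.53 for Slc15a2.

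Of 43 other plasma membrane amino acid transporters, 24 were tested, and none was called in a comparison of RANK-Fc; their median difference for current RANK-Fc was -0.01, and 0.00 over all genes. Between the passages, where 12% of all genes were called, 3 rose and 1 fell, with a median of 0.04, and 0.00 over all genes. Those that rose were Slc38a6 (0.61 ± 0.13, adjusted p = 0.00834), of the same family as SNAT1, Slc16a10 (0.40 ± 0.10, adjusted p = 0.0209), a carrier of aromatic amino acids, and Slc1a2 (0.38 ± 0.08, adjusted p = 0.0112), a glutamate carrier. Both Slc16a10 and Slc1a2 were dim, and Feature Extraction's processed signals gave 1.03 and 1.31 for them. The 1 that fell was Slc43a3, by 0.87 ± 0.21 (adjusted p = 0.0207). Slc43a3 was on the list as a relative of LAT4, but is known for carrying purine bases rather than amino acids. Its difference was -0.60 when passage 1 control replicate 2 was left out (adjusted p = 0.117) and -0.61 when passage 2 control replicate 2 was (adjusted p = 0.112). Between the controls of the passages Slc1a2 had 0.51 ± 0.13 (adjusted p = 0.0478), a call kept in 1 of 16 leave-one-out fits, that without prior and current replicate 3. Centring each channel on its median ended the averaged passage calls of Slc38a6, Slc16a10 and Slc1a2 (adjusted p = 0.0678, 0.123 and 0.0688).

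Several of the members are targets of the amino acid response, the programme by which ATF4 raises transporters and synthetases when amino acids run short. Of 32 genes on that list, 29 were tested and 0 were called in any comparison of RANK-Fc. For current RANK-Fc averaged over 3 backgrounds, 24 of the 29 had a positive difference, with a median of 0.08 against 0.00 over all genes. In single comparisons of RANK-Fc this count ran from 14, for prior RANK-Fc against control, to 26 in passage 1. For prior RANK-Fc averaged it was 11. The list was drawn up with earlier results known and positive differences were not counted over all genes, so nothing is read from these counts. Asns, asparagine synthetase, had the smallest p, at 0.59 ± 0.09 (adjusted p = 0.194), followed by Aars, alanyl-tRNA synthetase, at 0.26 ± 0.09 (adjusted p = 0.657). Between the passages, where 12% of all genes were called, 5 rose and 1 fell, with a median of 0.13. Aars rose by 0.88 ± 0.12 (adjusted p = 7.27e-04), Atf3, a stress transcription factor, by 0.84 ± 0.13 (adjusted p = 0.00183) and Ddit4, a brake on mTORC1, by 0.61 ± 0.14 (adjusted p = 0.0142). Cth, an enzyme of cysteine synthesis, fell by 0.31 ± 0.09 (adjusted p = 0.0381), a call kept in 6 of 16 leave-one-out fits. Between the controls of the passages, Aars was called again at 0.90 ± 0.18 (adjusted p = 0.0211), a call lost without any 1 of the 4 controls (adjusted p up to 0.281, without passage 2 control replicate 2) and under median centring (0.151). Slc7a1 rose with these 5, while Slc38a2, another known target, had 0.23 ± 0.14 (adjusted p = 0.326) and Asns 0.03 ± 0.13 (adjusted p = 0.916). The members did not move together: 6 of the 9 tested had a positive difference, and Slc1a5 and Slc38a1 were called lower, at -0.60 ± 0.14 and -0.66 ± 0.16.

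Of 28 genes by which mTORC1 senses amino acids, 26 were tested and none was called in a comparison of RANK-Fc. Between the passages 3 fell: Mlst8, a subunit of the complex, by 0.55 ± 0.12 (adjusted p = 0.0111), Sesn3, a sestrin that restrains it, by 0.46 ± 0.12 (adjusted p = 0.0266), and Rptor, the subunit that recruits substrates, by 0.37 ± 0.11 (adjusted p = 0.0436). That comparison called 12% of all genes, so nothing is read from the count of 3. The median of the 26 was 0.04, and 0.00 over all genes. Among 16 leave-one-out fits, Rptor was called in 4, Sesn3 in 10 and Mlst8 in 14.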

How the data were processed

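The 16 tumours were hybridised as 2 channels on each of 8 arrays; their groups came from the labels. Per the file headers, the authors took values from the scans with Agilent Feature Extraction (version 10.7.3.1), and the deposited intensity values are median spot and local background signals of each colour, linear and not normalised between arrays. Per the file headers, the deposited log10 ratio is red over green of the processed signals, and served to check the dyes (r from 0.715 to 0.935 across spots with both channels well above background). Other deposited quality marks, per the file headers, flag spots well above background, saturated or uneven. The remaining deposited table of normalised ratios has 8 columns of values that match no label and was not used. All arrays lay on 1 slide with 1 scan time.

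Of 62976 spots per array, 59305 were not controls and gave 55681 probes; 28026 were named through RefSeq accessions (assembly GRCm38.p6) and 27655 were left unnamed. Intensities were corrected by normexp (offset 50), normalised by loess within and Aquantile between arrays, and taken to log2; flagged spots were dropped and repeated spots averaged. The offset narrows differences of dim probes. limma 3.58.1 in R 4.3.3, with statmod 1.5.0, fitted 6 group means and a dye term to all 16 channels, with the array as block (intraspot correlation 0.229, limma's 0.268 corrected for its bias in this design) and 9 residual degrees of freedom. Benjamini-Hochberg adjustment ran over 14131 genes, with 0.05 as the threshold. The fit was tested on simulated data. The p-values measure the spread between tumours; their number limits the precision, and an array holds no count depth. Figures used matplotlib 3.10.9.

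The members and gene lists were chosen with earlier results of these data known. All members are named; of other lists, the 3 largest called changes each way, or the 2 smallest p where none was called; and the 5 genes most like Slc15a2. The differences of effects and the repeats for list genes were added after the data were seen.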

Additional observations from a re-analysis of the deposited data

How the results depend on the processing

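Under 11 other settings and 16 fits without 1 tumour, no called member or list gene changed sign. With both treatments against control, where 1 member (Slc15a2) was called, 0 were under processed signals, median centring, no filter, the mean of passing probes, no dye term, the groups compared alone and a trended prior; the fits without 1 tumour gave 0 to 1. That call held without either passage 1 control, current replicate 1 or 2, or replicate 1 with both treatments. Slc15a2 was chosen by its level with RANK-Fc, so its calls here are a description and no test. With prior RANK-Fc averaged, where 1 (Slc43a2) was called, 0 were with no background subtraction, median centring, no filter, no dye term and the groups compared alone; without 1 tumour the count ran from 0 to 2, the 2 being Slc43a2 with Slc38a1 (without current replicate 1 or replicate 1 with both treatments) or, without current replicate 2, Slc15a2 with Slc38a1. Between the passages, 3 became 1 without any 1 of the 4 controls, and the fits without 1 tumour gave 1 to 3; processed signals, median centring, no filter and no dye term gave 2, each without Slc7a1; between the controls of the passages, 0 became 1 (Slc1a5) without passage 1 control replicate 2, a range of 0 to 1. All other counts of members stayed at 0. All genes called for prior RANK-Fc averaged numbered 52 as reported, 10 with no dye term, 13 with the groups alone, 31 with no filter, 76 with processed signals and 77 with quantile normalization, and 18 to 273 without 1 tumour (116 without replicate 1 with both treatments). With both treatments against control, 12 became 0 with no dye term, 18 with median centring, 1 without passage 2 control replicate 2 and 24 without replicate 1 with both treatments. Without 1 tumour, the passage counts ran from 786 to 1935 and, between controls, from 11 to 592; median centring gave 1136 and 301. Where 0 genes were called, fits without 1 tumour called at most 31. Of the list genes, Slc38a6, Slc1a2, Ddit4 and Mlst8 lost their passage call without passage 2 control replicate 1, and the last 3 of these also without passage 1 control replicate 1; Slc16a10 lost it without any 1 of the 4 controls or passage 1 RANK-Fc replicate 1. Median centring ended the calls of Slc38a6, Slc16a10, Slc1a2, Ddit4 (adjusted p = 0.115), Cth (0.0844), Rptor (0.0834) and Sesn3 (0.0594). Median centring shifted the median of all genes by 0.14 for prior RANK-Fc against control, 0.21 for both treatments, 0.16 for prior RANK-Fc averaged, -0.13 between the passages and -0.16 between their controls. It moved the share of higher calls from 75% to 96% for prior RANK-Fc averaged, from 35.5% to 18% between the passages and from 28.5% to 17.6% between their controls. Requiring signal in all 16 channels left 12456 genes and no filter 21154. The cause of these changes was not tested. Fits with 1 tumour left in a group assume that it varies like the others. No paired analysis was possible because the labels give no replicate numbers shared between groups; tumours of 1 array were linked in the fit by the array block.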
